A study of Homo sapiens with 4 samples.

Results

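The regions described here had an ATAC-seq peak after Activin A alone and a peak after Wnt3a alone, in the untreated control or in both of these, yet none when Activin A and Wnt3a were given together. They were chosen by the presence and absence of called peaks alone, after overlapping or book-ended peaks of the 4 deposited lists had been joined. Of 87966 joined regions in the series, 2314 met the rule. They split into 831 regions with a Wnt3a peak and no control peak, 1335 with a control peak and no Wnt3a peak, and 148 with a peak in both lists. The last class was missing from the combined list alone.

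ATAC-seq marks open chromatin through a transposase that inserts sequencing adapters where DNA is not covered by nucleosomes, and a peak is a stretch with more insertions than its background. The cells were H1, an established human embryonic stem cell line, on Matrigel without feeder cells. The groups were Activin A plus Wnt3a (25 ng/ml each, 6 h), Activin A (25 ng/ml, 6 h), Wnt3a (25 ng/ml, 6 h) and control, with 1 library each. The 3 treated groups were in a medium with B27, and control cells stayed in the growth medium with N2, B27 and basic fibroblast growth factor, so the 2 lists whose contrast defines these regions shared a medium and control did not. No harvest time was given for control. With 1 library per group no test between groups was possible, and no difference has a replicate check. Intervals are exact (Clopper-Pearson) 95% intervals that cover counting error only.

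Activin A, a TGF-beta family ligand, acts through receptors that phosphorylate SMAD2 and SMAD3, which then enter the nucleus with SMAD4. Wnt3a stabilises beta-catenin, which joins TCF and LEF factors on DNA. Low Activin or Nodal signalling helps to keep human embryonic stem cells pluripotent, and a stronger signal together with Wnt moves them towards mesendoderm, from which mesoderm and endoderm both arise. The study's question was what the pair of pathways does together, and these regions are those sites, among all where a peak found with Activin A was not found with both ligands, that also had a peak in control or after Wnt3a alone. No gene or sequence of the build of the lists, hg19, was used here, so regions are named by position and cytogenetic band.

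The lists held 58382 peaks with both ligands, 75585 after Activin A, 21078 after Wnt3a and 26223 in control. Depth is unknown for each list, as no read numbers were at hand. Each peak carries the authors' score, which rises with the evidence for the peak within its own library. Here it is read as a percentile within its own list, from 0 for the weakest to 100 for the strongest peak.

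A peak in another list went with a lower rate of absence from the combined list. Of all 73116 Activin A regions, 39.4% had no combined peak. Among those with neither a Wnt3a nor a control peak the share was 57.9%, and among the 27355 with at least 1 of these peaks it was 8.46% (95% interval 8.13 to 8.80), which are the 2314 regions. The share was the same for the single sources, 831 of 5444 regions with a Wnt3a peak only (15.3%, 14.3 to 16.2) and 1335 of 8747 with a control peak only (15.3%, 14.5 to 16.0). It was 148 of 13164 (1.12%, 0.951 to 1.32) where both had a peak. The presence of these peaks is part of the rule, so the shares describe the set and support nothing about a treatment.

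The opposite pattern was rarer. Regions with a combined peak, a Wnt3a or control peak and no Activin A peak numbered 863 of 25904 (3.33%, 3.12 to 3.56), against 21.0% without an Activin A peak among all combined regions. By source the exchanged set held 281 of 4894 regions (5.74%, 5.11 to 6.43) with a Wnt3a peak only, 526 of 7938 (6.63%, 6.09 to 7.20) with a control peak only and 56 of 13072 (0.428%, 0.324 to 0.556) with both. Its make-up resembled that of the set described here: 35.9% (34.0 to 37.9) of the 2314 regions and 32.6% (29.4 to 35.8) of the 863 rested on a Wnt3a peak only, 57.7% (55.6 to 59.7) and 61.0% (57.6 to 64.2) on a control peak only, and 6.40% (5.43 to 7.47) and 6.49% (4.94 to 8.34) on both. The Activin A list is longer than the combined list, and a longer list leaves fewer regions without a peak, so list length and ligand cannot be told apart in the difference in number. For scale, regions present in the other 3 lists numbered 7412 without a Wnt3a peak and 4613 without a control peak.

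**Figure D1:**
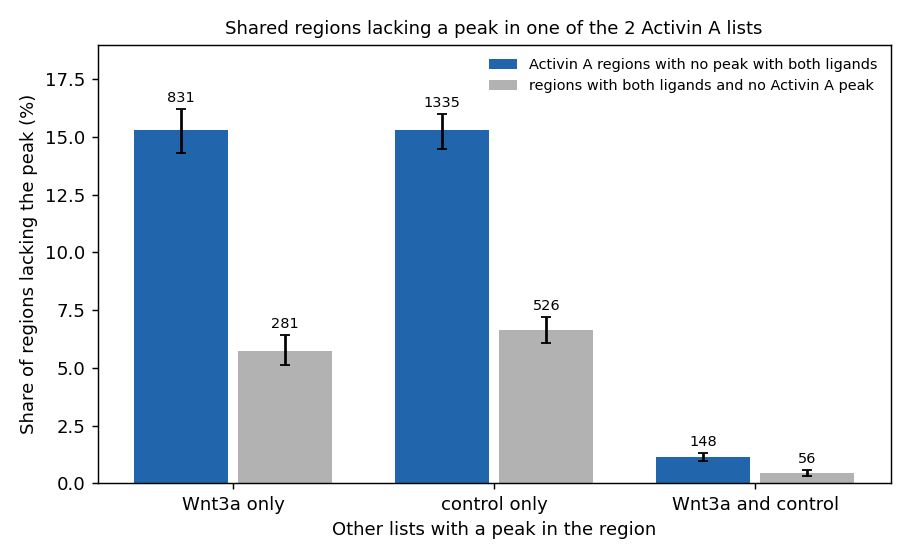
Share of regions lacking a peak, in percent, by which other lists had one. Blue bars show Activin A regions with no peak in the combined list and grey bars combined regions with no Activin A peak; whiskers are exact 95% intervals and the numbers above the bars count the lacking regions. Each blue bar is above its grey neighbour (15.3% against 5.74%, 15.3% against 6.63% and 1.12% against 0.428%).

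The regions scored lower than shared regions that kept a combined peak in each list that held them. Each region took its best score per list. More than 1 Activin A peak was held by 7.6% of the kept regions and 0.778% of the 2314. The effect of this on the scores was not tested. Of the 2314, 926 (40.0%, 38.0 to 42.0) were in the top 50% of the Activin A list, against 90.0% (89.6 to 90.3) of those that kept one. Their median score percentile was 43.6 in the Activin A list, 24.2 in the Wnt3a list (979 regions) and 26.3 in the control list (1483 regions). Shared regions that kept a combined peak had medians of 82.3, 56.4 and 59.3. These values pool the classes, and 13016 of the 25041 kept regions had both further peaks, against 148 of the 2314. With a Wnt3a peak only, the medians in the Wnt3a list were 23.3 without and 35.8 with a combined peak. With a control peak only, those in the control list were 25.3 and 41.4. With both, the medians were 29.3 and 65.3 in the Wnt3a list and 35.3 and 71.2 in the control list. In score units the medians were 95.8 after Activin A, 67.4 after Wnt3a and 59.4 in control for the regions without a combined peak, and the lowest score a list can hold is close to 50. Regions missing from the combined list alone were stronger than those with a single further source. Their Activin A percentile had a median of 57.0, with quartiles at 38.3 and 66.4, against 44.4 (23.1 and 59.8) for the Wnt3a class and 41.3 (24.3 and 57.7) for the control class, and 87 of the 148 (58.8%, 50.4 to 66.8) were in the top 50%. This is not particular to regions without a combined peak. Among kept regions the median was 90.3 with both further peaks, 70.5 with a Wnt3a peak only and 72.0 with a control peak only. None of the 2314 was among the highest-scoring 10% of Activin A peaks, the highest percentile being 89.6.

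**Figure D2:**
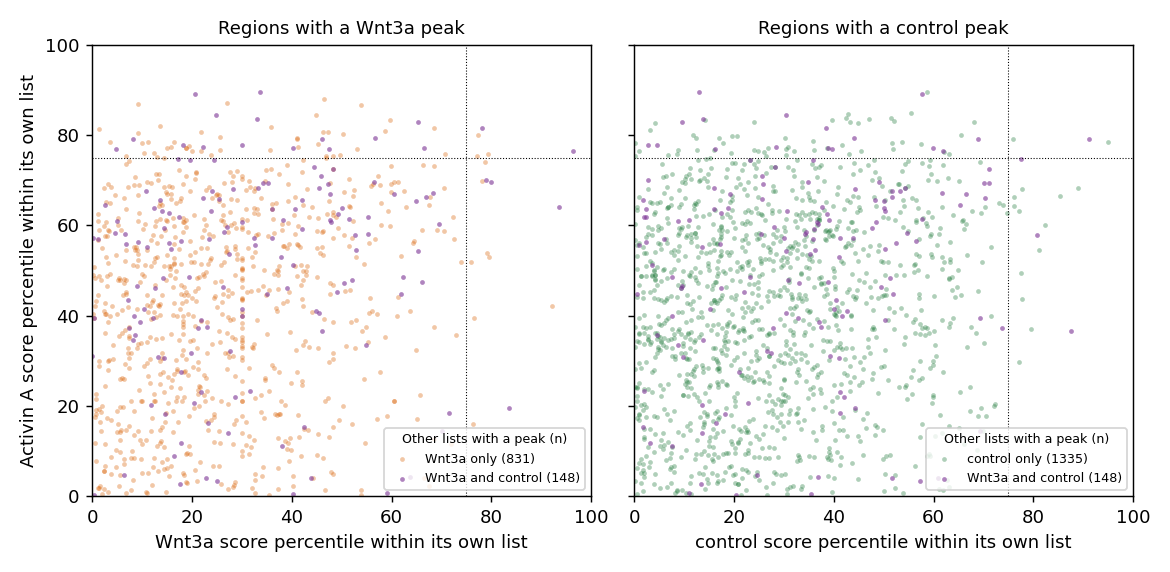
Activin A score percentile (vertical) against the Wnt3a score percentile (left) and the control score percentile (right), 1 point per region without a combined peak; purple points have both peaks and appear in each panel. Dotted lines mark the 75th percentile. Most points lie below both lines, and 5 regions in the left panel and 3 in the right are above both lines.

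Absence from the combined list varied with the Activin A score, and further sources went with less absence at equal score. In the lowest 10% of Activin A scores the combined peak was missing from 82 of 161 regions with a Wnt3a peak only (50.9%, 42.9 to 58.9), from 135 of 247 with a control peak only (54.7%, 48.2 to 61.0), from 10 of 41 with both (24.4%, 12.4 to 40.3) and from 81.2% (80.2 to 82.1) of regions with neither. Between the 60th and the 70th percentile the shares were 12.7% (10.7 to 15.0), 11.4% (9.82 to 13.2), 5.86% (4.20 to 7.92) and 27.0% (25.6 to 28.3) in the same order. In the top 10% of Activin A scores none of 7429 shared regions lacked a combined peak, which allows a share of up to 0.0496%. Wnt3a and control peaks went with similar rates throughout, with overlapping intervals in all 10 score bins. Absence also varied with the score of the further peak, in counts that include regions with both further peaks. The score and the number of further sources were not separated there. Among regions between the 25th and the 50th percentile of Activin A scores, 31.5% (27.6 to 35.5) lacked a combined peak when the Wnt3a peak was in the lowest 25% of its list and 15.8% (10.8 to 22.0) when it was between the 50th and 75th percentile. For control peaks the corresponding shares were 36.2% (32.7 to 39.8) and 21.3% (16.9 to 26.3).

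**Figure D3:**
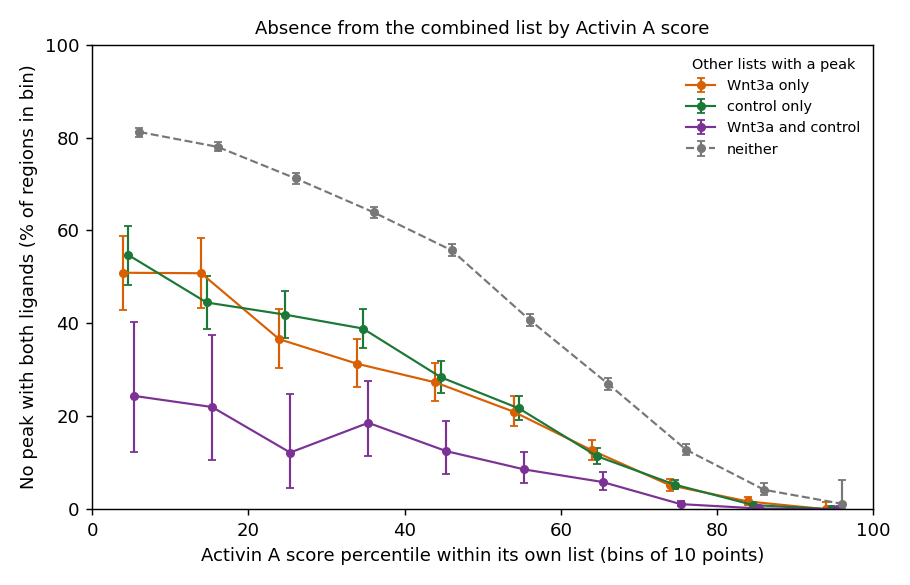
Share of Activin A regions with no combined peak, in percent, by Activin A score percentile in bins of 10 points; lines separate regions by which other lists had a peak, points are offset sideways within a bin for legibility, and whiskers are exact 95% intervals. The share is far lower in the strongest bin than in the weakest on every line, at 81.2% in the weakest and 1.16% in the strongest for regions with neither peak.

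The edge of the rule lies among weak peaks. Of the 25041 shared regions that kept a combined peak, 507 (2.02%) had a combined score under 55 and 2473 (9.88%) a score under 75. The 5 regions listed just outside the rule were tied at the lowest combined score of that set, 50.05, which further regions may share. One of them, at chr1:24513341-24514469 in 1p36.11, had an Activin A score of 148.2 and a control score of 127.5, above the medians of the regions inside the rule. Another, at chr1:156828795-156829514 in 1q23.1, had scores of 55.5 after Activin A and 59.0 after Wnt3a. The other 3 were in 6q24.2, 15q15.1 and 18q23, with Activin A scores of 142.2, 121.6 and 158.8. Just inside the rule, the weakest Activin A peaks scored 50.7, at chr1:1985636-1986416 in 1p36.33 with a control score of 59.5 and at chr17:79708105-79708867 in 17q25.3 with a Wnt3a score of 73.1.

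For some regions a combined peak lay close by. The nearest combined peak was 2 bases away for the closest regions, at chr4:6717562-6718334 in 4p16.1 and at chr5:145716891-145717581 in 5q32, and 683084 bases away for the farthest. The median distance was 7799 bases, with 7969 for the Wnt3a class, 7880 for the control class and 5808.5 for regions with both peaks. A combined peak lay within 1 kb of 353 of the 2314 regions (15.3%, 13.8 to 16.8) and of 3312 of the 26500 regions found in the Activin A list alone (12.5%, 12.1 to 12.9). Within 10 kb the shares were 56.8% (54.8 to 58.9) and 51.5% (50.9 to 52.1).

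**Figure D4:**
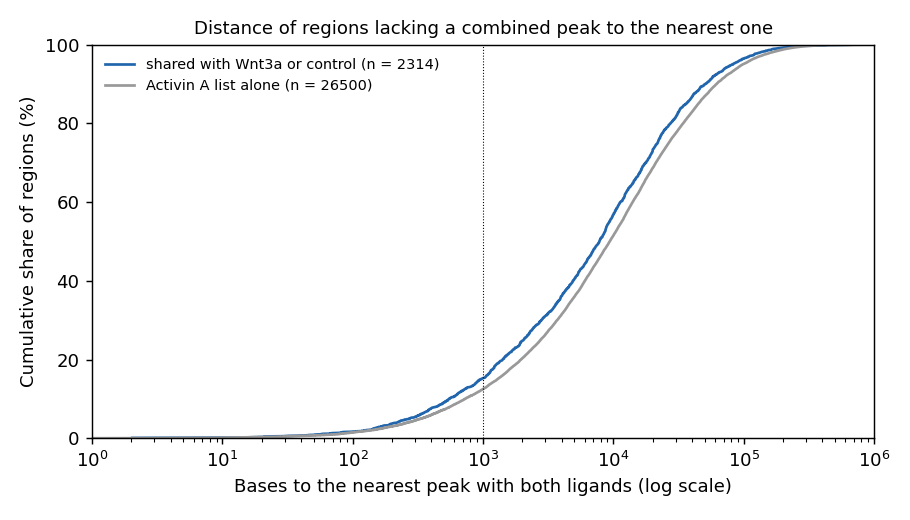
Cumulative share of regions, in percent, by the number of bases to the nearest combined peak on a log scale, for the 2314 shared regions without a combined peak (blue) and the 26500 regions in the Activin A list alone (grey). The dotted line marks 1 kb, below which 15.3% of the first and 12.5% of the second lie.

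The position of the peaks within a region was compared by Activin A score. Between the 50th and the 75th percentile of Activin A scores, the centres of the Activin A and Wnt3a peaks were a median of 89.0 bases apart in 359 regions without a combined peak and 84.5 bases in 3103 regions with one. For control peaks the medians were 93.5 bases in 503 regions and 91.5 bases in 4031. Under 50% of the control peak was covered by the Activin A peak in 2.19% (1.10 to 3.88) and 2.33% (1.89 to 2.85) of these. In the top 25% of Activin A scores the sets differed more. There the control centres were a median of 135.25 bases off in 72 regions without a combined peak and 109.5 bases in 12345 with one, and the Wnt3a centres 91.0 bases in 64 and 113.5 bases in 11128. Under 50% of the Wnt3a peak was covered in 3 of the 64 (4.69%, 0.977 to 13.1) and in 0.261% (0.175 to 0.374) of the 11128, while the shares for control peaks, 0 of 72 (up to 4.99%) and 0.316% (0.225 to 0.432), had overlapping intervals. Activin A peaks were narrower where no combined peak was found, with medians of 753 bases against 813 beside a Wnt3a peak and 781 against 823 beside a control peak. In the top 25% of scores the corresponding widths were 1076.5 against 1218 bases and 986.5 against 1205 bases. The scores within these bins were not matched further.

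Few regions were strong. In the Activin A list 120 of 2314 (5.19%, 4.32 to 6.17) reached the top 25%, a score of 215 or more: 48 of the Wnt3a class (5.78%, 4.29 to 7.59), 55 of the control class (4.12%, 3.12 to 5.33) and 17 of the regions with both (11.5%, 6.84 to 17.8). They were 0.733% (0.608 to 0.876) of the 16377 strong shared Activin A regions. In the exchanged set 29 of 13418 strong shared combined regions (0.216%, 0.145 to 0.310) had no Activin A peak. The highest Activin A score, 424.9, was at chr17:76879026-76881071 in 17q25.3, beside a control score of 84.9. The next, 424.2, was at chr20:43929388-43930112 in 20q13.12, with a Wnt3a score of 71.6 and a control score of 53.4. The third, 414.5, was at chr19:46277942-46278736 in 19q13.32, with a Wnt3a score of 65.4 and a control score of 83.6. In each of these 3 the further peaks were far weaker within their own lists, below the 60th percentile, and the nearest combined peak was 3407 to 14192 bases away.

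Regions strong in more than 1 list were rarer still. Of 5004 regions in the top 25% of both the Activin A and the Wnt3a list, 5 had no combined peak (0.0999%, 0.0325 to 0.233), and of 6188 in the top 25% of both the Activin A and the control list, 3 had none (0.0485%, 0.0100 to 0.142). Regions were named in each class by the highest value of the lowest percentile over the lists that held them, 8 per class.

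In the Wnt3a class, chr9:38423237-38424910 in 9p13.1 ranked first, with no peak with both ligands, a score of 263.0 after Activin A and 128.8 after Wnt3a. The region at chr12:57943276-57944581 in 12q13.3 had scores of 221.8 after Activin A and 134.1 after Wnt3a. At chr2:137521869-137523461 in 2q22.1 the scores were 217.7 after Activin A and 128.1 after Wnt3a. These 3 are in the top 25% of both lists, and each has a combined peak 815 to 1762 bases away. The region at chr19:18220263-18222152 in 19p13.11 followed with 207.4 after Activin A and 132.4 after Wnt3a. Far from any combined peak were chr1:107466790-107467687 in 1p13.3, with 222.3 after Activin A, 114.2 after Wnt3a and a distance of 131149 bases, and chrX:5087775-5088437 in Xp22.32, with 181.6 after Activin A, 130.7 after Wnt3a and a distance of 71923 bases. The last of the 8, in 10q25.2 and 5q35.2, had Activin A scores of 280.2 and 201.6, each with a Wnt3a score of 110.3.

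In the control class, chr1:119550000-119552176 in 1p12 ranked first, with no peak with both ligands, a score of 244.9 after Activin A and 233.3 in control. A combined peak lay 358 bases from it. The region at chr12:122667297-122668517 in 12q24.31 had scores of 252.7 after Activin A and 118.3 in control, with 6898 bases to the nearest combined peak. At chr1:11846928-11848394 in 1p36.22 the scores were 207.4 after Activin A and 102.4 in control. Another, at chr6:44280525-44281382 in 6p21.1, had the highest Activin A score of the 8, 300.2, with a control score of 99.9 and 14017 bases to the nearest combined peak. A pair of these regions lie on either side of the centromere and heterochromatin of chromosome 1: chr1:121355557-121356519 in 1p11.2, with a score of 172.9 both after Activin A and in control, and chr1:144007792-144009032 in 1q21.1, with 171.3 after Activin A and 123.0 in control. The remaining regions, in 11q13.1 and 11q13.5, had Activin A scores of 164.2 and 162.8 beside control scores of 151.9 and 118.4, the first only 17 bases from a combined peak.

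Among the 148 regions missing from the combined list alone, the first by this rule was at chr4:49658846-49660090 in the centromeric band 4p11, with scores of 226.2 after Activin A, 264.2 after Wnt3a and 89.9 in control. The region at chr1:19974924-19975769 in 1p36.13 had 167.2 after Activin A, 109.8 after Wnt3a and 89.5 in control. A region in 8q13.3 had 165.8 after Activin A, 97.6 after Wnt3a and 97.2 in control. At chr14:54795744-54796451 in 14q22.2 the scores were 233.5 after Activin A, 106.9 after Wnt3a and 86.6 in control, and the nearest combined peak was 16235 bases away. The region at chr18:18512648-18513816, in the centromeric band 18q11.1, had 129.9 after Activin A, 87.9 after Wnt3a and 133.8 in control, and a combined peak 193 bases away. The other 3, at chr5:157421613-157422517 in 5q33.3, chr4:120970658-120971430 in 4q27 and chr16:74905463-74905990 in 16q23.1, had Activin A scores of 162.6, 141.8 and 158.4, Wnt3a scores of 107.2, 86.8 and 104.2, and control scores of 76.8, 83.6 and 75.3. Scores are given side by side for each list and are not comparable between lists.

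Bands classed by their stain as centromeric or variable heterochromatin are called repeat-rich here, though repeat content was not measured. The class includes 19p12, where 2 of 29 shared regions had no combined peak, and 19q12, where 5 of 25 had none. Such bands made up a larger share of the regions missing from the combined list alone than of regions found in all lists. They held 13 of these 148 regions (8.78%, 4.76 to 14.6) and 102 of the 13016 regions present in all 4 lists (0.784%, 0.639 to 0.951). In the Wnt3a class they held 0.722% (0.265 to 1.56) of regions without a combined peak and 0.564% (0.368 to 0.825) of those with one. In the control class the corresponding values were 0.749% (0.360 to 1.37) and 0.486% (0.340 to 0.672), and the intervals overlapped in each class. Over all classes 29 regions (1.25%, 0.841 to 1.79) lay in such bands, against 164 kept regions (0.655%, 0.559 to 0.763). In the lowest 25% of Activin A scores 13 of 17 shared regions in such bands had no combined peak (76.5%, 50.1 to 93.2), against 578 of 1267 elsewhere (45.6%, 42.9 to 48.4). Some of these 13 low-scoring regions lay in Yq12 and are counted again under chromosome Y below, and others lay close together in 4p11. They are not independent, though their interval assumes it. In the 3 higher score ranges the intervals of these bands and of the others overlapped. In band 4p11, 5 of the 6 shared regions between positions 49120734 and 49157067 were missing from the combined list alone. These are 5 of the 13 regions counted among the 148, and 2 more of those 13 lay in Yq12 between positions 58976984 and 58997372. The 13 of the 148 are therefore not independent, though their interval assumes it. Over all classes 4p11 held 8 of the 29 regions. The staining of the other bands, which follows base composition and gene density, differed little between the sets: unstained bands held 60.1% (58.1 to 62.1) of the regions and 59.7% (59.1 to 60.3) of kept regions.

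Chromosome Y stood apart. Of its 36 shared Activin A regions 14 had no combined peak (38.9%, 23.1 to 56.5), while the other chromosomes ranged from 5.86% (4.74 to 7.16) on chromosome 19 to 10.5% (8.77 to 12.5) on chromosome 4. The exchanged set held 1 region on chromosome Y. Its shared regions also had the lowest median Activin A percentile of any chromosome, 68.7. By Activin A score, from the lowest to the highest 25%, the combined peak was missing from 8 of 8 (interval 63.1 to 100), 1 of 5 (0.505 to 71.6), 4 of 8 (15.7 to 84.3) and 1 of 15 (0.169 to 31.9) of them. Shared regions outside the repeat-rich bands had shares of 45.6%, 30.5%, 11.3% and 0.725% in the same ranges. The 2 sets are unlike, since the chromosome Y counts include the repeat-rich band Yq12. The share on chromosome Y was lower between the 25th and the 50th percentile. Its intervals exclude the compared shares in the lowest range and in that from the 50th to the 75th percentile. All intervals for chromosome Y assume independent regions. However, 7 of the 14 regions lay between positions 13447821 and 13479800 and 5 between 58976984 and 58997372, so they are not independent. The strongest of the 14, at chrY:13475767-13477331 in Yq11.21, had a score of 252.2 after Activin A, 60.2 after Wnt3a and 188.7 in control. Next came chrY:58978318-58979879 in the heterochromatic band Yq12, with 196.8 after Activin A, 83.6 after Wnt3a and 106.0 in control. Of the 14 regions 7 lay in Yq11.21, which held 16 of the 36 shared regions, and 6 in Yq12, which held 9 of them. Chromosome 19 had the lowest share and also the highest median Activin A percentile of shared regions, 85.6, and the largest part of them with both further peaks, 56.4%. The X chromosome, with 36 of 373 regions (9.65%, 6.85 to 13.1), was within the range of the autosomes.

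**Figure D5:**
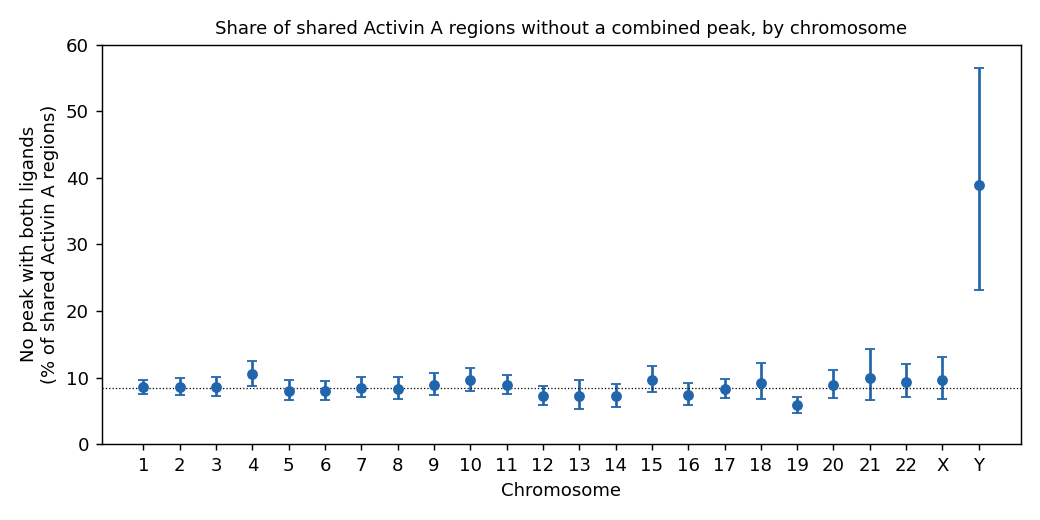
Share of shared Activin A regions without a combined peak, in percent, by chromosome; points are shares, whiskers exact 95% intervals and the dotted line the share over the genome, 8.46%. Chromosome Y, at 38.9%, is the only point whose whole interval lies above those of all other chromosomes. The intervals assume independent regions.

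Most regions stood alone, and a few lay in runs. With gaps of up to 50 kb, 1856 of the 2314 had no other such region beside them. Of the shared Activin A regions centred within 50 kb of these regions, 11.8% also lacked a combined peak, against 7.68% around shared regions that kept theirs. The order was the same in each quartile of the Activin A score of the central region: 13.4% against 8.41% in the lowest, then 10.5% against 9.03%, 11.7% against 8.31% and 12.1% against 7.31%. The scores of the neighbours themselves were not matched. Without chromosome Y and the repeat-rich bands, an alternative chosen after seeing the data, the shares were 10.4% and 7.58%. Around regions in the Activin A list alone the share was 9.18%, with chromosome Y and these bands included. Neighbours are counted once for each region they lie near and are not independent, so no interval is given. The longest run had 7 regions, from 13447821 to 13479800 in Yq11.21, where 7 of 10 shared regions had no combined peak. Runs of 5 were in Yq12 (5 of 7 shared regions), 4p11 (5 of 6) and at chr17:42600286-42688170 in 17q21.31 (5 of 10). Runs of 4 were at chr6:108440306-108497375 in 6q21 (4 of 6, all with a control peak only), chr2:45161979-45232397 in 2p21 (4 of 8, of which 3 had a Wnt3a peak only), chr10:73366283-73457069 in 10q22.1 (4 of 9) and chr20:31098165-31174019 in 20q11.21 (4 of 6). By band, the largest numbers were in 19p13.3 (17 of 238 shared regions, 7.14%, 4.22 to 11.2), 11q23.3 (16 of 138, 11.6%, 6.77 to 18.1) and 21q22.3 (16 of 96, 16.7%, 9.84 to 25.6). Only the last of these intervals excludes the share over the genome.

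At equal list length the pattern was carried largely by other regions. When each list was cut to its 21078 best-scoring peaks, 2396 regions met the rule, 869 with a Wnt3a peak only, 896 with a control peak only and 631 with both, counted in the cut lists. Of these, 2247 (93.8%) had a combined peak of lower score in the full list, and 149 (6.22%) overlapped a region of the full-list set. The exchanged set then held 2238 regions, close in number, where the full lists gave 2314 against 863. A stricter set asked for peaks in the top 50% of the Activin A list and of the Wnt3a or control list, with no combined peak of any score. It held 191 regions, and the exchanged set 54. When no combined peak within 1 kb was asked for as well, an alternative chosen after seeing the data, 154 regions remained, against 45 in the exchanged set. Counting only peaks in the top 50% of their list, 59 of the 154 had a Wnt3a and no control peak, 88 a control and no Wnt3a peak and 7 had both; some of the first 2 kinds had a weaker peak in the other list, such as chrY:13475767-13477331.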

How the data were processed

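ATAC-seq peak lists of 4 libraries, 1 per group, were used, each with 5 columns (chromosome, start, end, peak name, score). The reads had gone through CASAVA 1.8 and Bowtie2 2.2.2 with build hg19, per the submitters' processing notes. Peak names follow the MACS style; for caller version, settings, duplicate removal, read shifting and depth the entry is "not given in the sources used here", and each could change which weak peaks pass. The score is the authors' deposited value, which from its range appears to be the negative log10 of a p-value, times 10, within 1 library; it was used only within a list. Groups came from the labels. Peaks that overlapped by 1 base or touched were joined, and a region took its best score per list. Bands were the hg19 bands of circlize 0.4.16, assigned by region midpoint. Coordinates are hg19, counted from 1. Python 3.11.15, numpy 2.4.6, pandas 2.3.3, scipy 1.17.1 and matplotlib 3.10.9 were used. On simulated lists made from the 75585 Activin A peaks, 8878 of 8985 planted regions (98.8%) were recovered. The simulated peaks were copies with small shifts, so high recovery was built in. The check covers the joining and counting steps only. The members, measures and naming rule (8 regions per class, the 3 bands with most members, the 5 weakest combined peaks) were chosen with earlier results of these data known; regions with the highest scores and runs were chosen after their values were seen. Gene, promoter and motif analyses were not run, since the gene tables at hand were on another build than hg19. Alternatives covered overlap, score, list length, distance, width, chromosomes and bands.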

Additional observations from a re-analysis of the deposited data

How the results depend on the processing

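Of 104 alternative values, 45 stayed close to those reported (counts within 1.5 times, shares within their 95% interval) and 59 moved. All counts and shares stayed on autosomes and without centromeric, heterochromatic and stalk bands. In every alternative the regions outnumbered the exchanged set, and the share without a combined peak was lowest where both further peaks were present. With the longer Activin A list, list length and ligand cannot be told apart in the first of these. At equal list length the numbers were 2396 and 2238. The values that moved are given by setting, with shares in the order all shared regions, Wnt3a peak only, control peak only, both, and classes set by the peaks that each setting kept. Requiring 50% reciprocal overlap gave 381 regions with both peaks, 388 strong regions, an exchanged set of 1702 and shares of 11.8%, 19.5%, 17.7% and 3.49%. Using 500 bases around each centre gave 304, 388, 1414 and 10.3%, 17.5%, 17.1% and 2.37%. Merging within 500 bases gave 8.01% over all shared regions, and no combined peak within 1 kb gave 7.17%, 12.9%, 13.0% and 0.919%. The top 50% of every list gave 1081 regions (368 Wnt3a only, 644 control only, 69 both), 367 strong, 343 exchanged and shares of 7.28%, 13.1% and 12.9% for the first 3. The top 50% for presence with the whole combined list for absence gave 191 regions (70, 113 and 8), 32 strong, 54 exchanged and 1.29%, 2.50%, 2.27% and 0.113%. With no combined peak within 1 kb as well (chosen after seeing the data) these were 154 (59, 88 and 7), 27, 45 and 1.04%, 2.10%, 1.77% and 0.0990%. Equal list length gave 631 regions with both peaks, 1894 strong, 2238 exchanged and 14.1%, 29.4%, 28.1% and 5.80%. The median percentile was 24.2 in the Wnt3a and 26.3 in the control list, the median distance between centres 8630.2 bases, and 2.72% of regions lay in repeat-rich bands widened by 1 Mb. Fewer peaks entered by construction under the score and length settings; for the others the cause was not tested. Depth is unknown and limits what absence of a weak peak can show. Promoter windows and other annotation alternatives were not run. No paired analysis was possible because there was 1 library per group, and for the same reason no replicate could be left out.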

Other observations

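Among bands with at least 20 shared Activin A regions, chosen after their values were seen, the largest shares without a combined peak were in 15q13.1 (6 of 20 regions, 30.0%, 11.9 to 54.3) and 3q28 (7 of 27, 25.9%, 11.1 to 46.3). Band 4q35.1 had 12 of 52 (23.1%, 12.5 to 36.8), and 3 of its regions lay within 442 bases of a neighbour, between positions 186225838 and 186229044 on chromosome 4. Many bands were compared, so these are given as values only.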
